A study of Mus musculus with 8 samples.

Results

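Liver transcripts of 10 enzymes that make, break down or modify ceramide were compared between mice that received AAV8-AGXT and mice that received AAV8-GFP. The enzymes were chosen by name, as Sptlc1, Sptlc2, Cers2, Cers5, Cers6, Degs1, Smpd1, Asah1, Sphk1 and Ugcg, out of 52636 genes counted in each liver. All 8 animals were wild-type males of the C57BL/6J strain, and all ate the MASH diet, which is rich in fat, fructose and cholesterol. A group of 4 mice (303, 311, 314 and 315) was given AAV8-TBG-GFP and a group of 4 (308, 309, 316 and 319) was given AAV8-TBG-AGXT. AAV8 is an adeno-associated virus with a tropism for liver, TBG is a promoter active in hepatocytes, and the AGXT delivered was the human gene, which encodes alanine-glyoxylate aminotransferase. Virus was injected at 7 weeks of age, feeding of the diet began at 8 weeks and livers were taken after 24 weeks of it. Only hepatocytes were meant to express the transgene, whereas the RNA came from whole liver. In such bulk RNA, fewer cells of a type and less RNA per cell cannot be told apart.

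Ceramide is the central lipid of the sphingolipid pathway and is made in the endoplasmic reticulum. Serine palmitoyltransferase joins serine to palmitoyl-CoA, ceramide synthases add a second acyl chain to the sphingoid base, and a desaturase turns the resulting dihydroceramide into ceramide. Ceramide is then built into sphingomyelin or glucosylceramide, or is cut by ceramidases to sphingosine, which sphingosine kinases phosphorylate to the signalling lipid sphingosine 1-phosphate. Ceramides accumulate in fatty liver and have been linked to insulin resistance, with the length of the acyl chain set by the ceramide synthase used.

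The promoter regions of Sptlc1 and Sptlc2, which encode partner subunits of serine palmitoyltransferase, are shown because Sptlc2 and not Sptlc1 lay below all controls in every AAV8-AGXT liver, and that of St3gal5 because it is a gene of the wider pathway that passed the test. Each sequence is 300 bases around the annotated start from RefSeq on GRCm38.p6, written 5′ to 3′ on the strand of the gene. Capitals mark GC boxes (GGGCGG) and CCAAT boxes (CCAAT), searched on both strands, and these motifs do not overlap each other here. They lie at chr13:53377312-53377611 on the minus strand for Sptlc1, chr12:87388306-87388605 on the minus strand for Sptlc2 and chr6:72097358-72097657 on the plus strand for St3gal5.
Sptlc1: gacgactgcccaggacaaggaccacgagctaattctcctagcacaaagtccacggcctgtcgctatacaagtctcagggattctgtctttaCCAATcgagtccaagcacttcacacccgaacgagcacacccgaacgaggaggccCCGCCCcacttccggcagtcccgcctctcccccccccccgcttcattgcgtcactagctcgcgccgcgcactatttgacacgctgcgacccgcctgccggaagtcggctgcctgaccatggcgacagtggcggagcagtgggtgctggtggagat
Sptlc2: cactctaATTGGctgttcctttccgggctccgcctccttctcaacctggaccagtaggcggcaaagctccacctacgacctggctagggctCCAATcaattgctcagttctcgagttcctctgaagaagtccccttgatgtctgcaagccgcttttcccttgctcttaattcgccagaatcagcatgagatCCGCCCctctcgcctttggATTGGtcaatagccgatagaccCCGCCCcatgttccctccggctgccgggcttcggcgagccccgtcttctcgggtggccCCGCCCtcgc
St3gal5: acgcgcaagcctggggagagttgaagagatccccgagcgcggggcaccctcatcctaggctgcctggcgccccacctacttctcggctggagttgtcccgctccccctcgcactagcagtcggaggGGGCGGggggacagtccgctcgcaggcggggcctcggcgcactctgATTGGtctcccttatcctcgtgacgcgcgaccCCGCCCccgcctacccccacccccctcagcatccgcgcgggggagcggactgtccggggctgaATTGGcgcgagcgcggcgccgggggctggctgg
The Sptlc1 window held 1 GC box and 1 CCAAT box, the Sptlc2 window 3 of each and the St3gal5 window 2 of each. The window of Apom, the other gene of the wider pathway that passed the test, held neither motif. Those of the enzymes Smpd1 and Cers5 held 4 and 3 GC boxes. Of the 32851 promoter windows in the same table, 35.7% held a GC box and 37.4% held a CCAAT box. An entry was found for 9 of the 10 enzymes, all but Asah1. None of the 3 windows shown held an E-box (CACGTG) or a TATA box (TATAAA), which occurred in 7.15% and 13.6% of all windows. Sphk1 had a TATA box in 1 of its 5 listed windows.

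The gene counts of a liver summed to 19747909 to 28780140 read pairs with AAV8-GFP and to 17095433 to 23940200 with AAV8-AGXT. Counts on genes made up 63.3% to 69.1% and 56.3% to 64.8% of all tallied pairs, with the lowest share in mouse 308. The mouse gene Agxt stood at 148.3 to 179.9 CPM (counts scaled to a common library size, normalized for composition) in AAV8-GFP mice and 201.5 to 405.3 CPM in AAV8-AGXT mice, a rise of 0.90 on the log2 scale (SE 0.22, adjusted p = 0.0489 by edgeR's quasi-likelihood test). Reads of the human transgene that aligned to the mouse gene cannot be told apart from those of the mouse gene. Hepatocyte markers were abundant in every liver, with a summed level of 45471 to 54573 CPM in AAV8-GFP mice and 55185 to 77837 CPM in AAV8-AGXT mice, and 1 of 8 rose (Cps1). The sum for lipid-associated macrophages was 513 to 1060 CPM against 131 to 475 CPM, with 1 of 7 lower (Cd9), and that for stellate cells and fibroblasts was 528 to 936 CPM against 214 to 588 CPM, with 1 of 8 lower (Acta2). Cell cycle markers summed to 20.2 to 34.0 CPM against 4.21 to 12.4 CPM, with 3 of 5 lower. No marker passed the test among 8 of macrophages and Kupffer cells (568.9 to 968.6 CPM against 279.5 to 1092 CPM), 6 of endothelial cells (124.6 to 188.5 against 134.5 to 240.2), 4 of cholangiocytes (23.5 to 62.6 against 13.7 to 33.2), 5 of T and NK cells (6.09 to 12.3 against 2.49 to 8.27), 4 of B cells (3.75 to 9.12 against 3.73 to 6.42) and 3 of neutrophils that could be tested (20.3 to 32.3 against 6.83 to 21.7). Over all tested genes, 2.45% were called higher and 1.90% lower. At an unadjusted p under 0.05 (edgeR), 4 of 4 cholangiocyte and 5 of 5 cell cycle markers were lower. So were 5 of 7 lipid-associated macrophage and 6 of 8 stellate cell markers, and 1 each for macrophages, T and NK cells and neutrophils. By that rule 4 of 8 hepatocyte markers and 1 macrophage marker were higher. Of all tested genes, 12.6% were lower and 13.5% higher by it. No marker was at 0 in all mice. Mouse 308 had the lowest sum in 7 of these 10 lists and the highest in the hepatocyte and endothelial lists.

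None of the 10 enzymes rose or fell with AAV8-AGXT at an adjusted p under 0.05. All 10 could be tested, 4 had a log2 fold change above 0 and 6 below it, and the median log2 fold change was −0.12 against 0.02 over all 15248 genes tested. Among all those genes, 2.45% were called higher, 1.90% lower and 4.35% in either direction. Without adjustment, 2 of the 10 had a p under 0.05, both lower (Sptlc2 and Sphk1), where 12.6% of all tested genes were lower and 13.5% higher by that rule. The groups did not overlap for 1 enzyme, Sptlc2, which was lower, and for none that was higher, where 7.63% of all tested genes lay entirely below and 8.93% entirely above the controls. DESeq2 also called none of the 10, while it called 12.9% of the genes it tested.

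**Figure D1:**
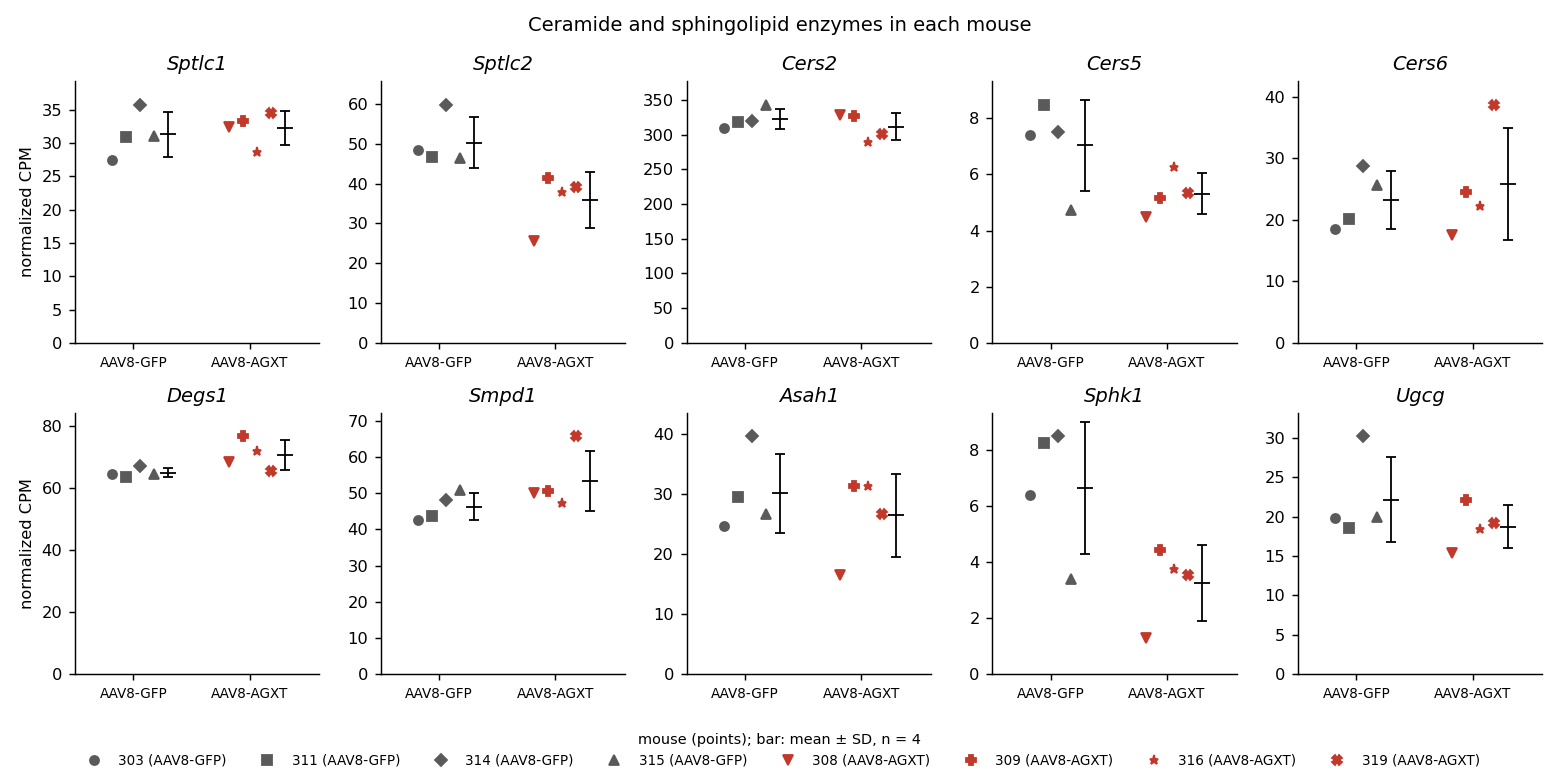
Normalized CPM of each of the 10 enzymes on linear axes that start at 0, with AAV8-GFP mice in gray and AAV8-AGXT mice in red, a marker shape for each mouse, and bars for the mean ± SD (n = 4). Sptlc2 is the only panel in which every AAV8-AGXT mouse lies below every AAV8-GFP mouse.

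**Figure D2:**
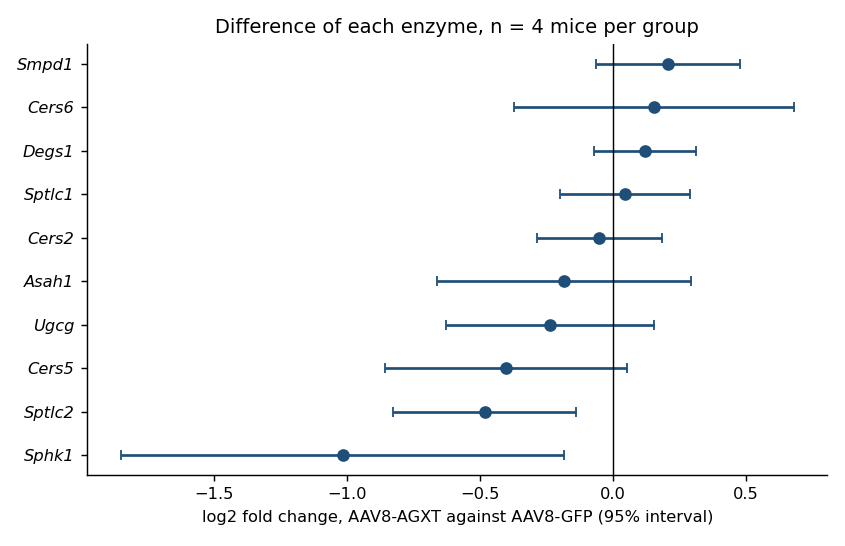
Log2 fold change of each enzyme, AAV8-AGXT against AAV8-GFP, with 95% intervals from edgeR that are not adjusted for the number of genes. The intervals of Sptlc2 (−0.83 to −0.14) and Sphk1 (−1.85 to −0.18) lie below 0 and those of the other 8 include 0.

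To set levels of different genes side by side, CPM were divided by the length of their merged exons. On this scale Cers2 stood far above the others at 87.8 ± 3.82 CPM per kb (SD, n = 4) in AAV8-GFP mice and 84.7 ± 5.19 in AAV8-AGXT mice. Degs1 followed at 25.1 ± 0.60 and 27.3 ± 1.86 CPM per kb, and Smpd1 at 13.9 ± 1.15 and 16.0 ± 2.49. The ranges of these 3 over all mice did not touch. Asah1 (8.89 ± 1.95 and 7.80 ± 2.05 CPM per kb) and Sptlc1 (8.79 ± 0.96 and 9.06 ± 0.71) could not be ordered, since their ranges overlapped. Sptlc2 stood at 6.20 ± 0.78 and 4.43 ± 0.86 CPM per kb and Ugcg at 4.24 ± 1.04 and 3.59 ± 0.53. Cers6 came next at 2.62 ± 0.54 and 2.90 ± 1.03, and Cers5 at 1.99 ± 0.46 and 1.5001 ± 0.2069. Sphk1 was the scarcest, at 1.39 ± 0.49 and 0.683 ± 0.284 CPM per kb. The range of Sptlc1 over the 8 mice lay above that of Sptlc2 without overlap, and from Sptlc2 downwards the range of each enzyme overlapped that of the next in order.

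**Figure D3:**
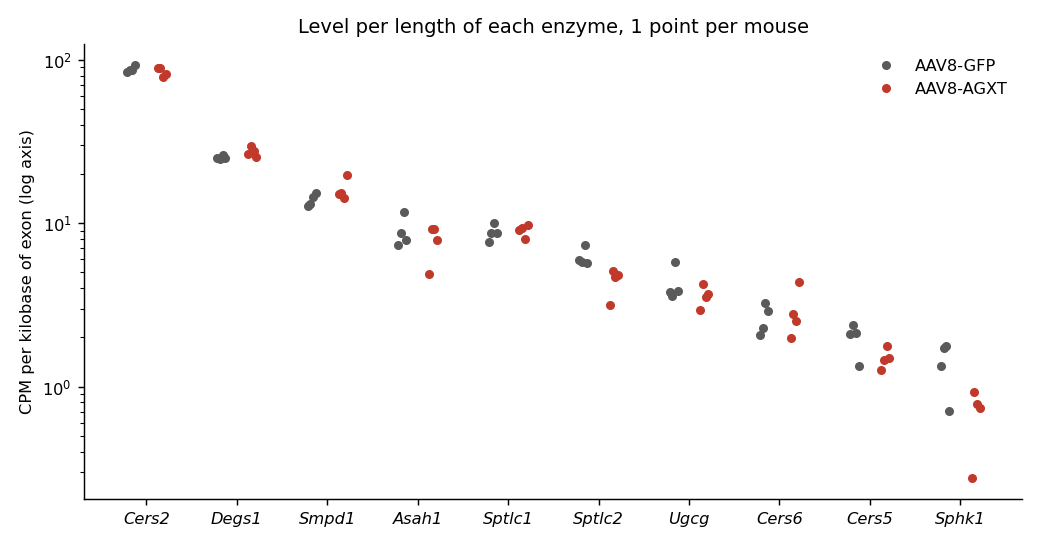
Level of each enzyme in CPM per kb of merged exon, on a log axis, with 1 point per mouse and the groups in gray (AAV8-GFP) and red (AAV8-AGXT). Cers2 lies above every other enzyme and Sphk1 is the lowest by mean.

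Serine palmitoyltransferase catalyses the first and rate-limiting step of ceramide synthesis and is built from the subunits encoded by Sptlc1 and Sptlc2. Sptlc2 (ENSMUSG00000021036, chr12:87305058-87388355, minus strand, GRCm38) had the larger difference. It stood at 48.3, 46.8, 59.8 and 46.4 CPM in AAV8-GFP mice 303, 311, 314 and 315, and at 25.7, 41.3, 37.8 and 39.0 CPM in AAV8-AGXT mice 308, 309, 316 and 319. All 4 AAV8-AGXT livers lay below all 4 controls, with mouse 308 well under the rest. The means were 50.3 ± 6.36 and 36.0 ± 7.01 CPM (SD, n = 4), a log2 fold change of −0.48 (SE 0.15, 95% interval −0.83 to −0.14) that did not pass (adjusted p = 0.0903, edgeR; 0.0501 by DESeq2). Without mouse 308 the log2 fold change was −0.37. Leaving out each mouse in turn gave −0.57 to −0.37, with adjusted p from 0.0792 to 0.202. Sptlc1 (ENSMUSG00000021468, chr13:53332748-53377397, minus strand), the subunit that Sptlc2 pairs with, stood at 27.4, 30.9, 35.7 and 31.0 CPM in the controls and 32.4, 33.4, 28.6 and 34.4 CPM with AAV8-AGXT. Its groups overlapped fully, at means of 31.3 ± 3.42 and 32.2 ± 2.54 CPM, and its log2 fold change was 0.04 (SE 0.11, 95% interval −0.20 to 0.29, adjusted p = 0.835, edgeR). That sign turned to −0.02 with upper-quartile scaling.

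The ratio of Sptlc2 to Sptlc1 CPM within each liver was examined as a description. This ratio and the others below were not divided by length, so they compare livers and not the levels of the paired genes, and per kb Sptlc2 lay below Sptlc1 in every liver. It was 1.77, 1.51, 1.67 and 1.496 in AAV8-GFP mice 303, 311, 314 and 315, and 0.791, 1.24, 1.32 and 1.13 in AAV8-AGXT mice 308, 309, 316 and 319. The ratio was lowest in mouse 308, and every AAV8-AGXT liver lay below every control. The mean ratios were 1.61 ± 0.13 and 1.12 ± 0.23 (SD, n = 4), with no test made.

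**Figure D4:**
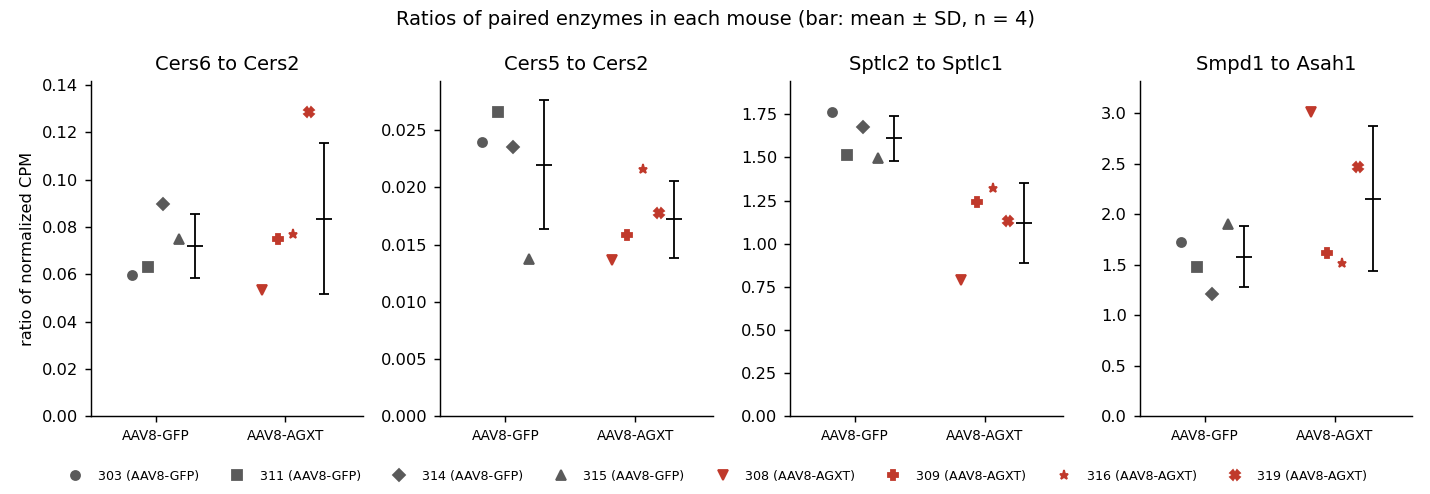
Ratios of normalized CPM between pairs of enzymes in each mouse, on linear axes that start at 0, with AAV8-GFP in gray, AAV8-AGXT in red and bars for the mean ± SD (n = 4). The groups are apart for Sptlc2 to Sptlc1 and overlap for the other 3 ratios.

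Ceramide synthases differ in the acyl chains they use. Cers2, the main liver isoform, makes ceramides with very long chains, whereas Cers5 and Cers6 make those with long chains such as palmitate. Cers2 (ENSMUSG00000015714, chr3:95314791-95323599, plus strand) stood at 310.1, 318, 319.6 and 343 CPM in the controls and 328, 327, 290.0 and 300.4 CPM with AAV8-AGXT. The groups overlapped, and the difference was −0.05 on the log2 scale (SE 0.11, 95% interval −0.29 to 0.18, adjusted p = 0.793, edgeR), or −0.0958 to −0.015 with each mouse left out. Its exons overlap those of Setdb1 and of the antisense gene 6330562C20Rik, and the strand setting of the counting is not given in the sources used here. Cers6 (ENSMUSG00000027035, chr2:68861441-69114282, plus strand) stood at 18.5, 20.1, 28.7 and 25.7 CPM against 17.5, 24.5, 22.3 and 38.7 CPM. Mouse 319 was the highest of all 8, the groups overlapped, and the log2 fold change of 0.15 (SE 0.24, 95% interval −0.37 to 0.68, adjusted p = 0.722, edgeR) became −0.11 without that mouse. Cers5 (ENSMUSG00000023021, chr15:99734881-99772885, minus strand) stood at 7.42, 8.48, 7.52 and 4.72 CPM against 4.49, 5.17, 6.27 and 5.33 CPM. Control mouse 315 lay within the AAV8-AGXT range while the other 3 controls were above it, and the log2 fold change was −0.40 (SE 0.20, 95% interval −0.86 to 0.05, adjusted p = 0.242, edgeR).

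Of the summed level per length of the 6 ceramide synthase genes, Cers2 made up 93.7% to 95.3% in AAV8-GFP mice and 92.9% to 95.9% in AAV8-AGXT mice. Cers6 made up 2.33% to 3.48% and 2.12% to 4.96%, and Cers5 1.36% to 2.61% and 1.36% to 2.11%. Cers4 made up 0.408% to 0.696% and 0.394% to 0.624%. The groups overlapped for each of these shares, which rest on the length of merged exons and were not computed with the longest transcript. The ratio of Cers6 to Cers2 was 0.0719 ± 0.0136 against 0.0835 ± 0.0320 (SD, n = 4), with the highest value, 0.129, in mouse 319. Cers1 and Cers3 reached at most 2 and 3 counts in any liver and could not be tested.

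Degs1 and Smpd1, which both yield ceramide, had slightly higher means with AAV8-AGXT that did not pass the test. Degs1 (ENSMUSG00000038633, chr1:182275772-182282804, minus strand), the desaturase that finishes de novo ceramide, stood at 64.5, 63.7, 67.2 and 64.5 CPM in the controls and 68.4, 76.6, 72.0 and 65.4 CPM with AAV8-AGXT. Only mouse 319 lay within the control range, and the controls were the tightest of any of the 10 enzymes, with a coefficient of variation of 2.39%. The log2 fold change was 0.12 (SE 0.086, 95% interval −0.07 to 0.31, adjusted p = 0.402, edgeR), and 0.06 without mouse 309. Smpd1 (ENSMUSG00000037049, chr7:105554360-105558389, plus strand), acid sphingomyelinase, releases ceramide from sphingomyelin in lysosomes. It stood at 42.7, 43.6, 48.1 and 50.9 CPM against 49.98, 50.7, 47.4 and 65.7 CPM. Mouse 319 was the highest and the other 3 AAV8-AGXT mice lay within the control range, for a log2 fold change of 0.21 (SE 0.12, 95% interval −0.06 to 0.48, adjusted p = 0.305, edgeR) that was 0.10 without mouse 319.

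Asah1 and Ugcg consume ceramide, and neither passed the test. Asah1 (ENSMUSG00000031591, chr8:41340197-41374773, minus strand), acid ceramidase, stood at 24.8, 29.4, 39.6 and 26.7 CPM in the controls and 16.6, 31.4, 31.3 and 26.6 CPM with AAV8-AGXT. Mouse 308 was the lowest and control mouse 314 the highest, with the remaining mice intermixed. The log2 fold change was −0.19 (SE 0.21, 95% interval −0.66 to 0.29, adjusted p = 0.618, edgeR), and was −0.03 without mouse 308, −0.04 without mouse 314 and −0.29 without mouse 309. Smpd1 and Asah1 act in succession in the lysosome, and their ratio was 1.58 ± 0.30 against 2.15 ± 0.72 (SD, n = 4), with overlap between the groups. Ugcg (ENSMUSG00000028381, chr4:59189257-59222833, plus strand), which caps ceramide with glucose, stood at 19.8, 18.5, 30.2 and 19.98 CPM against 15.3, 22.1, 18.4 and 19.2 CPM. Control mouse 314 stood apart above the rest, and the log2 fold change was −0.24 (SE 0.18, 95% interval −0.63 to 0.15, adjusted p = 0.419, edgeR), or −0.07 without that mouse.

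Sphk1, which makes sphingosine 1-phosphate, had the largest fold difference of the 10 enzymes and the lowest counts, 19 to 270 per liver. Sphk1 (ENSMUSG00000061878, chr11:116530925-116536674, plus strand) stood at 6.40, 8.26, 8.49 and 3.40 CPM in AAV8-GFP mice 303, 311, 314 and 315, and at 1.31, 4.45, 3.75 and 3.54 CPM in AAV8-AGXT mice 308, 309, 316 and 319. The other 3 controls lay above all AAV8-AGXT mice, and control mouse 315 lay among them. The means were 6.64 ± 2.35 and 3.26 ± 1.36 CPM (SD, n = 4), a log2 fold change of −1.02 (SE 0.37, 95% interval −1.85 to −0.18) that did not pass (adjusted p = 0.126, edgeR; 0.0532 by DESeq2). Leaving out each mouse in turn gave −1.23 to −0.78, with adjusted p from 0.0669 without mouse 315 to 0.308. Its exons overlap those of the antisense gene Gm29292. Mouse 308 was the lowest of all 8 for Sphk1, Sptlc2, Asah1, Ugcg, Cers5 and Cers6, and it also had the lowest sums of macrophage, lipid-associated macrophage and stellate cell markers given above. Control mouse 315, the lowest control for Sphk1, Sptlc2 and Cers5, had the lowest control sums for lipid-associated macrophages and stellate cells. For Sptlc2 it lay just below mouse 311 (46.4 against 46.8 CPM), which had the highest lipid-associated macrophage sum. Mouse 315 was also the highest control for Cers2 and Smpd1 and had the highest sum of T and NK cell markers. AAV8-AGXT mouse 319 had sums of 286 CPM for lipid-associated macrophages and 261 CPM for stellate cells, below every control. Yet it was the highest of all 8 mice for Cers6 and Smpd1. Its Sptlc2 (39.0 CPM) and Sphk1 (3.54 CPM) lay within the range of the other AAV8-AGXT mice. The part of cell composition in these differences was not tested.

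Of 58 other genes of sphingolipid metabolism, 54 could be tested, and 2 rose while none fell, where 2.45% of all tested genes were called higher and 1.90% lower. St3gal5 and Apom were the 2 that rose, 25 genes had a higher and 29 a lower fold change, and the median was −0.02 on the log2 scale. The groups did not overlap for 2 genes above and 5 genes below the controls, where 8.93% and 7.63% of all tested genes did so. St3gal5 (ENSMUSG00000056091, chr6:72097592-72154571), the synthase of the ganglioside GM3, stood at 154.5, 137, 115 and 145 CPM in the controls and 351.5, 247, 250.7 and 350.2 CPM with AAV8-AGXT. Every AAV8-AGXT liver was above every control. It rose by 1.12 on the log2 scale (SE 0.16, adjusted p = 0.0231, edgeR), from a mean of 138 ± 16.8 to 299.8 ± 59.0 CPM, and the adjusted p was above 0.05 without mouse 311, 314 or 319 (0.0198 to 0.108 over the mice left out). Apom (ENSMUSG00000024391, chr17:35128997-35132050), the carrier of sphingosine 1-phosphate on lipoproteins, stood at 53.1, 55.3, 68.3 and 66.9 CPM against 148, 89.8, 115 and 195.5 CPM. Again the groups did not overlap, with the highest levels in mice 319 and 308. It rose by 1.17 on the log2 scale (SE 0.22, adjusted p = 0.0335, edgeR), and the adjusted p was above 0.05 without mouse 303, 311, 314, 308 or 319 (0.0211 to 0.126). The sum of hepatocyte markers was also higher in every AAV8-AGXT liver (55185 CPM or more) than in every control (54573 CPM or less). The median log2 fold change of those markers was 0.46, and for Alb, the most abundant of them, the groups overlapped. The part of cell composition was not tested.

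Other genes that use or regulate the same lipids did not pass the main edgeR test. Cerk, which phosphorylates ceramide, stood at 16.05, 22.2, 18.5 and 17.5 CPM in the controls and 7.87, 11.8, 14.2 and 10.7 CPM with AAV8-AGXT. The groups did not overlap, and the log2 fold change of −0.73 (SE 0.18) had an adjusted p of 0.0511 by edgeR and 0.00596 by DESeq2. The adjusted p of Cerk was also under 0.05 by limma-voom (0.047) and by edgeR with robust estimation (0.0474) or no filter (0.0367). By edgeR with other scaling, or at least 10 counts in every mouse, it was 0.0524 to 0.0534. With each mouse left out, the adjusted p of Cerk was 0.0454 to 0.174 by edgeR, and under 0.05 only without mouse 316. Exons of Cerk overlap Gm15569. B4galt6, a lactosylceramide synthase, was 11.03 ± 2.79 against 5.34 ± 1.79 CPM (SD, n = 4), with a log2 fold change of −1.04 (SE 0.27, adjusted p = 0.0611, edgeR; 0.00596 by DESeq2). The groups overlapped, with control mouse 315 at 7.23 CPM and AAV8-AGXT mouse 316 at 7.34 CPM. With no filter the adjusted p of B4galt6 was 0.0353 by edgeR. It was 0.0616 by limma-voom and 0.0583 by edgeR with robust estimation. By edgeR with other scaling, or at least 10 counts in every mouse, the adjusted p of B4galt6 was 0.0623 to 0.0628. With each mouse left out it was 0.0448 to 0.181 by edgeR, and under 0.05 only without mouse 315. Sptlc3, a further subunit that can take the place of Sptlc2, was scarce. It stood at 1.52, 0.0918, 0.0923 and 0.176 CPM against 3.45, 1.74, 1.08 and 2.41 CPM, with 1 control inside the AAV8-AGXT range and a log2 fold change of 2.18 (SE 0.79, adjusted p = 0.122, edgeR).

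The remaining genes named by role had smaller or less certain differences. In de novo synthesis Kdsr, which reduces ketosphinganine, had a log2 fold change of 0.23 (adjusted p = 0.238, edgeR), and among synthases Cers4 had one of −0.16 (0.652). The ceramide transfer protein CERT, listed as Col4a3bp, had a log2 fold change of 0.13 (0.466) and the sphingomyelin synthase Sgms2 one of 0.27 (0.404). Neither the sphingomyelinase-like Smpdl3a (0.32, 0.153) and Smpdl3b (−0.70, 0.362) nor the ceramidases Asah2 (0.24, 0.523) and Acer3 (−0.25, 0.272) passed. In the sphingosine 1-phosphate group Sgpp2, a phosphatase whose exons overlap Farsb, had a log2 fold change of −0.86 (0.166) and the receptor S1pr5 one of 0.75 (0.146). In breakdown of glycosphingolipids, Gla, α-galactosidase A, had a log2 fold change of −0.51 (0.123) and Gltp, a glycolipid transfer protein, one of −0.80 (0.117). The groups did not overlap for either of the last 2, which were lower. Sphk2, the second sphingosine kinase, was far above Sphk1 per length, at 17.1 ± 2.40 and 23.4 ± 6.98 CPM per kb, although its exons overlap Dbp and Rpl18. Its log2 fold change was 0.46 (adjusted p = 0.169, edgeR), and it is given here as the paralog of Sphk1.

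**Figure D5:**
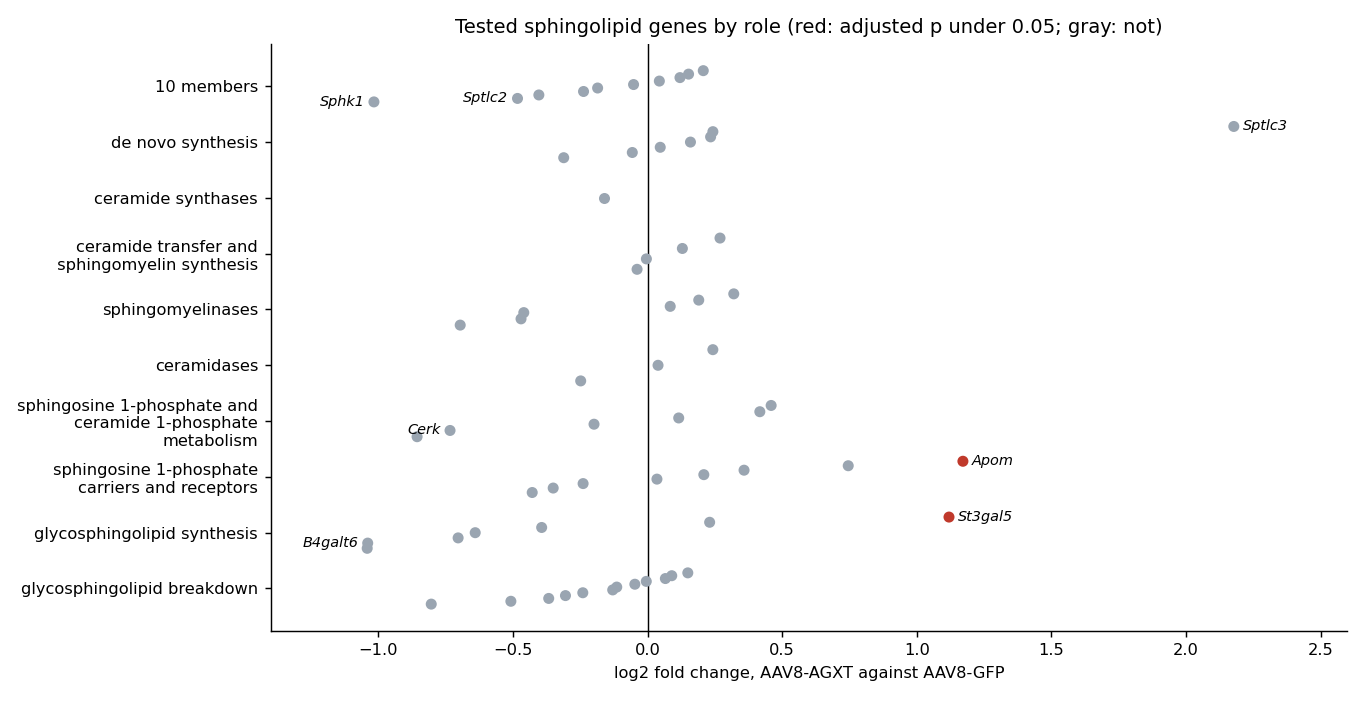
Log2 fold change, AAV8-AGXT against AAV8-GFP, of the 10 enzymes and of 54 other tested sphingolipid genes in rows by role, with red for an adjusted p under 0.05 and gray for the rest. St3gal5 and Apom are the 2 red points, and the labelled gray points Sptlc2, Sphk1, Cerk, B4galt6 and Sptlc3 did not pass.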

How the data were processed

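Liver RNA of 8 mice was sequenced by the authors as stranded mRNA libraries, 1 per mouse. The submitters' processing notes name FastQC 0.11.8, Trimmomatic 0.35, HISAT2 2.1.0.13 and HTSeq on GRCm38, and the strand option of the counting is not given in the sources used here. The deposited values are raw counts per gene, without normalization. Genes were tested in R 4.3.3 with edgeR 4.0.16 (filterByExpr, TMM, quasi-likelihood test, a model of treatment alone), with p-values adjusted by the Benjamini-Hochberg method across 15248 genes. Mice were grouped by the treatment in the labels and none was left out. The common biological coefficient of variation was 23.3%. Alternatives were DESeq2 1.42.0, limma-voom (limma 3.58.1), robust estimation, other scaling, no filter, at least 10 counts in every mouse, and each mouse left out. Positions and exon lengths came from GENCODE M21. The enzymes and lists were chosen with earlier results of these data known. All 10 enzymes are named, with the called genes and, per role, the 2 of smallest p among the other sphingolipid genes, and the 3 of smallest p among lysosomal genes. Sphk2 was named after its values were seen.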

Additional observations from a re-analysis of the deposited data

Results flagged for a closer look

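The 62 groups of 4 mice examined covered the 10 enzymes, other named genes and the ratios between enzymes. In 4 of them, 1 mouse lay far from the other 3 by Dixon's criterion, which chance alone meets in about 1 of 20 groups. Sptlc2 stood at 59.78 CPM in AAV8-GFP mouse 314 and at 46.4 to 48.34 CPM in the other controls. Ugcg stood at 30.17 CPM in the same mouse and at 18.55 to 19.98 CPM in the other controls. Gltp stood at 4.142 CPM in AAV8-AGXT mouse 308 and at 11.42 to 12.33 CPM in the rest of its group. Sptlc3 stood at 1.523 CPM in AAV8-GFP mouse 303 and at 0.0918 to 0.176 CPM in the other controls.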

How the results depend on the processing

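Of 150 fold changes of the 10 enzymes under alternatives, 147 kept their direction, 3 reversed and 0 passed the threshold. The reversals were Sptlc1, at −0.0213 with upper-quartile scaling and −0.0133 without mouse 303, and Cers6, at −0.11 without mouse 319. With each mouse left out these ranged from −0.0133 to 0.101 and from −0.11 to 0.285. DESeq2 called 1068 genes higher and 1033 lower over all genes, against 374 and 290 by edgeR. Higher calls were 56.3% of all calls by edgeR, and 46.0% with upper-quartile scaling. Leaving out 1 mouse gave 2 to 379 higher and 0 to 325 lower calls, and fewer mice were then fitted. The counts higher and lower were 2 and 0 without mouse 311, 11 and 4 without 314, 12 and 2 without 319, 86 and 91 without 308, 114 and 79 without 303, and 226 and 185 without 316. Of the other sphingolipid genes, 0 to 2 were called higher and 0 to 1 lower with a mouse left out. Across methods, scalings and filters, higher calls among these genes numbered 3 with DESeq2, 3 with limma-voom and 2 otherwise. Lower calls among these genes were all Cerk or B4galt6. These lower calls numbered 2 with DESeq2, 1 with limma-voom, 1 with robust estimation and 2 with no filter. Of all genes it tested, DESeq2 called 12.9% in either direction. Over all genes, limma-voom called 404 higher and 278 lower, robust estimation 393 and 291, and no filter 415 and 431. The cause of these differences between settings was not tested. Counts were lowest for Sphk1, at 19 to 270 per liver.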

Other observations

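Of 14 lysosomal genes outside the sphingolipid pathway, which share their compartment with Smpd1 and Asah1, all were tested, 1 rose and none fell, where 2.45% of all tested genes were called higher and 1.90% lower. Of the 14, 6 had a log2 fold change above 0 and 8 below it, with a median of −0.05, and the groups did not overlap for 4 genes above and 1 below the controls, against 8.93% and 7.63% of all tested genes. Npc1, which exports cholesterol from lysosomes, rose from 96.7 ± 13.6 to 142.0 ± 14.7 CPM (SD, n = 4), by 0.55 on the log2 scale (SE 0.13, adjusted p = 0.0461, edgeR). Exons of Npc1 overlap those of Rmc1 and Gm15956. Gaa, acid α-glucosidase, had a log2 fold change of 0.41 (adjusted p = 0.0992, edgeR) and Lamp2, a lysosomal membrane protein, one of 0.37 (0.154), and neither passed. For these 3 every AAV8-AGXT mouse was above every control. The proteases Ctsd and Ctss, named after their values were seen, had log2 fold changes of −0.32 (adjusted p = 0.186, edgeR) and −0.84 (0.1801) and did not pass, and Ctsd was the gene that lay entirely below the controls.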
